A study of Oryza sativa Indica Group with 24 samples.

Results

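Among the 26362 genes listed for developing rice grains, 49 were kept as members. They differed little between the cultivars up to 21 days post-anthesis (DPA). In the average of both cultivars they were most abundant at 21 DPA and less abundant again at 28 DPA. The members were chosen from the expression values themselves. For each gene, the mean of log2(FPKM + 0.5) was taken over the 3 replicates of each cultivar and DPA, where FPKM is the fragment count of a transcript scaled by its length and by library size, and the means of RD57 and RD6 were then averaged at each DPA. A gene entered if its largest group mean lay from 5 to under 500 FPKM, if the cultivars differed by less than 1 on this log2 scale at 7, 14 and 21 DPA, if the average was highest at 21 DPA, and if it was at least 1 lower at 28 DPA. The score is the average at 21 DPA minus the highest of the other 3 averages. Up to 150 genes could have been kept, but 49 met the conditions, so that no rank decided membership.

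The grains came from 2 indica cultivars, RD6, which is waxy, and RD57, which is rich in amylose, both grown in pots in a net house under natural light. RNA of 3 biological replicates was sequenced at 7, 14, 21 and 28 DPA in each cultivar, giving 24 libraries in 8 groups, and no other treatment or genetic change separated the groups. The labels give the tissue as endosperm, whereas the RNA was extracted from grains taken from the tagged panicles, so other grain tissues can contribute. Genes are listed by assembly identifiers, and 0 of the 26362 identifiers matched the gene table at hand, so that the members have no names or known functions here, the tissue was not checked against marker genes, and no sequence is shown.

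In a developing rice grain, the endosperm first multiplies its nuclei and forms cells, then fills with starch and storage proteins, and later loses water as the grain matures, while the embryo develops beside it. Waxy rice makes little or no amylose because the granule-bound starch synthase that builds it is low or absent, and high-amylose cultivars keep that enzyme active. In bulk grains, fewer cells of a type and less RNA per cell cannot be told apart, and FPKM gives a share of the RNA sequenced, not an amount per grain.

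A peak at 21 DPA followed by a clear fall was rare. Of the 26362 genes, 16020 had a largest group mean in the allowed range and 11724 of these also kept within the limit on cultivar difference. Among these 11724 genes, the average was highest at 7 DPA in 3436, at 14 DPA in 3015, at 21 DPA in 1521 and at 28 DPA in 3752. Of the 1521 genes highest at 21 DPA, the 49 members made up 3.22%, and the other 1472 fell by a median of 0.17 on the log2 scale to 28 DPA, against 1.34 in the members. These values follow from the rule and are given as a description. The members with the smallest falls were at 1.02 and 1.00, and the first genes left out by the fall were both at 0.99. The smallest scores kept were 0.012 and 0.020, and the nearest genes left out by the score were at -0.0017 and -0.053.

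The members ranged from low to abundant transcripts. Their mean over the 6 libraries at 21 DPA ran from 3.34 to 444 FPKM with a median of 13.5 FPKM, with 20 members under 10 FPKM, 24 from 10 to under 100 FPKM and 5 at 100 FPKM or more. In the cultivar groups, the members' median FPKM at 7, 14, 21 and 28 DPA was 2.86, 8.71, 13.0 and 5.81 in RD57. The corresponding medians in RD6 were 3.34, 7.03, 14.0 and 4.03 FPKM. Over all genes the group medians lay between 3.12 and 4.21 FPKM. No 2 members had consecutive identifier numbers.

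**Figure D1:**
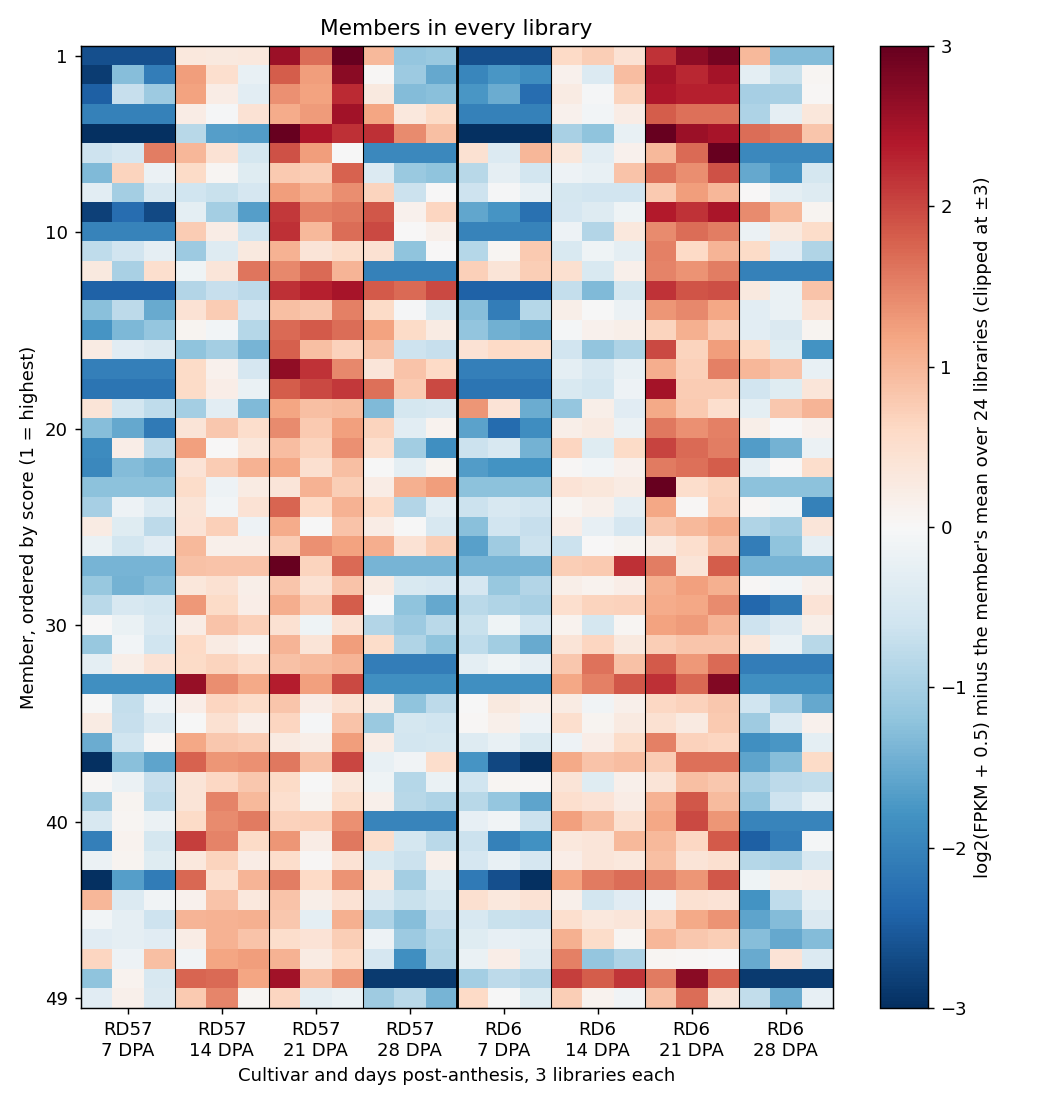
Heatmap of the 49 members (rows, ordered by score) in the 24 libraries (columns, 3 per cultivar and DPA). Colour gives log2(FPKM + 0.5) minus the member's mean over the 24 libraries, clipped at 3 in either direction, and the 21 DPA columns of both cultivars are the reddest for most rows. In many of the lower rows, the RD57 columns at 14 DPA are about as red as those at 21 DPA or redder.

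In the average of both cultivars, the members graded from a distinct peak to nearly equal levels at 14 and 21 DPA. The score ran from 0.012 to 2.23 with a median of 0.74, and it was at least 1 in 19 members, from 0.5 to 1 in 10, and under 0.5 in 20. The second highest stage was 14 DPA in 35 members, 28 DPA in 10 and 7 DPA in 4. Of the 20 members with a score under 0.5, 19 had 14 DPA as the second highest stage. In 13 members the score was under 0.2. For single libraries, the members' median SD between replicates was 0.28 to 0.60 on the log2 scale in the 8 groups. The score compares averages of 6 libraries, whose error is smaller than this SD, so the SD does not test it. In 12 of the 13 members with a score under 0.2 the second highest stage was 14 DPA, and whether it differed from 21 DPA was not tested. A small step in the average could hide opposite steps in the cultivars. From 14 to 21 DPA, XLOC_010665 changed by -0.72 in RD57 and 0.74 in RD6, and XLOC_003948 by -0.57 and 0.91. In XLOC_008892 the steps were 0.036 in RD57 and 0.0041 in RD6.

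By cultivar, the highest group mean on the log2 scale lay at 21 DPA in 48 members in RD6 and in 36 members in RD57, and in both cultivars for 35 members. In RD57, 12 members were highest at 14 DPA and 1 at 28 DPA, and in RD6 1 was highest at 7 DPA. All 12 of the members that were highest at 14 DPA in RD57 had a score under 0.5. None of them fell from 14 to 21 DPA in RD6, where the lowest step over all members was 0.0041, so the cultivars moved in opposite directions there. Of the 29 members with a score of at least 0.5, 28 peaked at 21 DPA in both cultivars, against 7 of the 20 with a lower score.

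The separation of individual libraries was also described without a test, because the rule used these stages. In RD6, all 3 libraries at 21 DPA were above all 3 at 14 DPA in 35 of the 49 members, where 27.5% of all genes showed this, and above all 3 at 28 DPA in 45, where 24.2% of all genes did. In RD57 this held against 14 DPA in 18 members, with 29.0% of all genes, and against 28 DPA in 34, with 16.7% of all genes. Against 7 DPA it held in 43 members in RD6 and in 39 in RD57, beside 30.5% and 31.1% of all genes. In 8 members, the libraries at 21 DPA of both cultivars stood above those at 14 and 28 DPA without overlap, a pattern of 0.891% of all genes. In 31 members the 14 and 21 DPA libraries of RD57 overlapped.

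The median change from 14 to 21 DPA was 0.96 on the log2 scale in RD6, from 0.0041 to 3.64, and 0.53 in RD57, from -0.72 to 3.95. From 21 to 28 DPA the median change was -1.73 in RD6 and -1.23 in RD57, and in the members above 0 at 28 DPA it was -1.53 over 41 members in RD6 and -1.12 over 42 in RD57. The fall was larger in RD6 than in RD57 in 37 of the 49 members. The rule asked for a fall of at least 1 only in the average, so single cultivars could fall by less. The lowest values of 21 minus 28 DPA were -0.13 in RD57 and 0.30 in RD6. Over all genes, these medians were 0 in both cultivars.

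**Figure D2:**
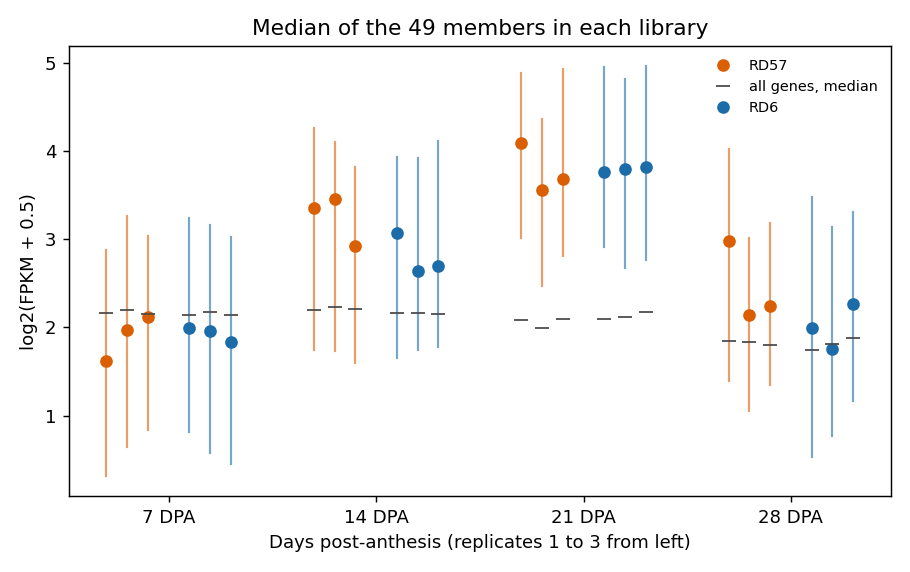
Median of the 49 members in each library (points) with the range from the lower to the upper quartile of the members (lines), in log2(FPKM + 0.5), by cultivar and DPA. The black dashes give the median of all genes in the same library. The members' medians lie between 3.55 and 4.10 at 21 DPA and between 1.75 and 2.98 at 28 DPA.

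XLOC_005264 had the highest score, 2.23. It was listed at 0 in all 6 libraries at 7 DPA. At 14 DPA its FPKM in replicates 1 to 3 was 3.41, 3.33 and 3.37 in RD57 and 4.22, 4.75 and 3.70 in RD6, with 1 value in each group lying exactly midway between the other replicates, as the authors' filling of missing values gives. Transcript then reached 18.1, 9.46 and 53.0 FPKM in RD57 and 13.6, 19.7 and 22.3 FPKM in RD6 at 21 DPA. By 28 DPA the values were 5.66, 0.903 and 0.949 FPKM in RD57 and 5.67, 0.773 and 0.773 FPKM in RD6. All 6 libraries at 21 DPA were thus above every other library, although RD57 replicate 3 at 21 DPA and replicate 1 of each cultivar at 28 DPA stood well above the other replicates of their groups.

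XLOC_037889 had the second highest score, 1.81, and was detected at every stage. At 7 DPA its FPKM was 0.759, 3.28 and 1.66 in RD57 and 1.86, 2.22 and 1.99 in RD6. At 14 DPA it was 21.1, 12.3 and 7.30 FPKM in RD57 and 9.51, 6.37 and 16.8 FPKM in RD6. The peak values at 21 DPA were 31.6, 21.2 and 58.7 FPKM in RD57 and 51.2, 42.9 and 51.0 FPKM in RD6, and they were followed at 28 DPA by 8.83, 3.79 and 2.62 FPKM in RD57 and 6.98, 5.25 and 8.97 FPKM in RD6. The RD6 libraries at 21 DPA stood far above those of the other stages, whereas the lowest RD57 library at 21 DPA was barely above the highest at 14 DPA. The early rise, whose order the rule did not set, was 2.57 (SE 0.47, adjusted p = 1.45e-04) in RD57 and 2.07 (SE 0.47, adjusted p = 0.00118) in RD6 on the log2 scale by limma with Benjamini-Hochberg adjustment.

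XLOC_037247 and XLOC_006011 were the most abundant members at 21 DPA, with means of 444 and 371 FPKM over the 6 libraries. XLOC_037247 was at 19.1, 66.3 and 52.0 FPKM in RD57 and 46.2, 23.3 and 13.7 FPKM in RD6 at 7 DPA. At 14 DPA it was already at 540.0, 396 and 412 FPKM in RD57 and 345, 284 and 302 FPKM in RD6. At 21 DPA the values were 470.0, 289.7 and 637 FPKM in RD57 and 267, 501 and 500.3 FPKM in RD6. In both cultivars the 14 and 21 DPA libraries overlapped, so that this transcript formed a plateau. At 28 DPA it was at 136, 146 and 228 FPKM in RD57, below every library at 14 and 21 DPA, and at 52.8, 64.4 and 234 FPKM in RD6, where replicate 3 was over 3 times the others but still below the 21 DPA libraries.

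XLOC_006011 was the second most abundant. At 7 DPA it was at 38.0, 59.3 and 54.4 FPKM in RD57 and 46.0, 42.3 and 42.2 FPKM in RD6. At 14 DPA the values were 195, 249.6 and 303 FPKM in RD57 and 151, 138 and 162 FPKM in RD6. The level at 21 DPA was 331, 205 and 277 FPKM in RD57 and 431, 463 and 520.0 FPKM in RD6. It thus overlapped between 14 and 21 DPA in RD57, while in RD6 all 21 DPA libraries were far above those at 14 DPA, a difference that was not tested because the rule used both stages. At 28 DPA it was at 146, 120.3 and 156 FPKM in RD57 and 122, 149.6 and 213 FPKM in RD6, below every library at 21 DPA of the same cultivar. The difference between RD57 and RD6 in the change from 21 to 28 DPA was 0.66 (SE 0.30) on the log2 scale and did not pass the threshold (limma, adjusted p = 0.189). The rule bounded the 21 DPA part of this difference.

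**Figure D3:**
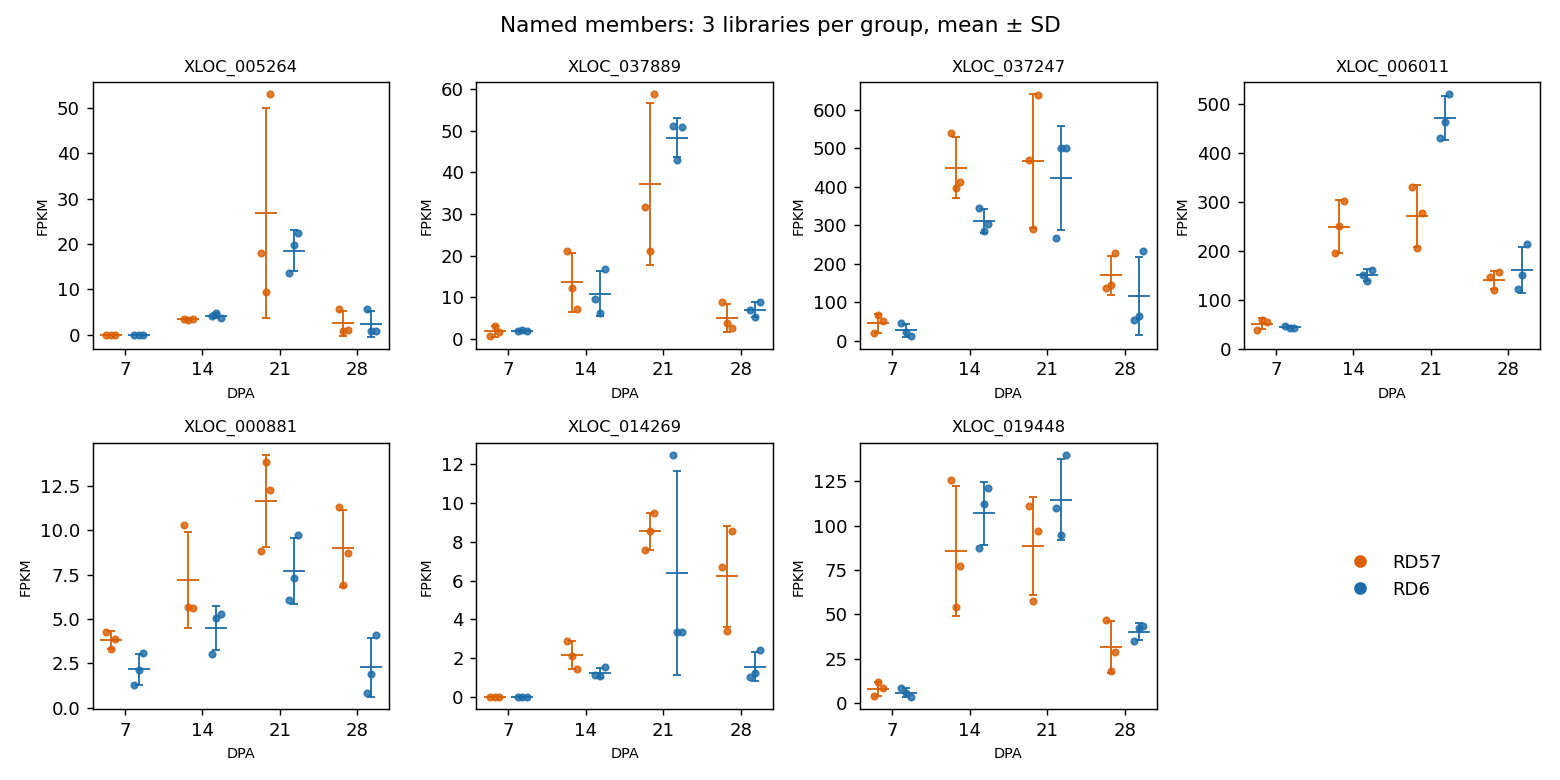
FPKM of 7 members in every library (points) with the group mean and SD (horizontal line and bar, n = 3) by DPA, RD57 in orange and RD6 in blue, each panel with its own axis from near 0. XLOC_005264 and XLOC_037889 have their highest means at 21 DPA, XLOC_037247 and XLOC_019448 are nearly level from 14 to 21 DPA, and XLOC_000881 and XLOC_014269 stay higher in RD57 than in RD6 at 28 DPA.

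The first comparison asked whether the members had already risen from 7 to 14 DPA. The rule held both stages below 21 DPA in the average but did not set their order. It did leave out every gene highest at 7 DPA, 3436 of the 11724 within the limits. Fewer falls and a larger share of rises from 7 DPA among the members are therefore partly built in, and the shares of all genes are not an even comparison. In the average of both cultivars, 29 members rose by at least 1 on the log2 scale, 1 fell by at least 1, and 19 lay between. The median over the members was 1.30, against 0.26 over the 1472 other genes highest at 21 DPA and 0 over all genes. By limma on log2(FPKM + 0.5), with calls at a Benjamini-Hochberg adjusted p of at most 0.05 and a change of at least 2, 14 of the 49 members rose in RD57, where 5.05% of all genes did, and 0 fell, where 2.66% of all genes did. In RD6, 12 members rose, beside 5.32% of all genes, and 0 fell, beside 2.88%. By adjusted p alone, 32 members rose and 0 fell in RD57, where 23.4% and 20.2% of all genes did, and 30 rose and 1 fell in RD6, where 21.4% and 20.5% did. The 10 members called in both cultivars all rose.

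Part of these calls rests on members that were listed at 0 at 7 DPA, which were 10 in all and at 0 in both cultivars. They account for 7 of the 14 calls in RD57 and 5 of the 12 in RD6. Their group means at 14 DPA were 0.888 to 5.99 FPKM and at 21 DPA 1.46 to 30.5 FPKM, so that their size on the log2 scale depends on the pseudocount of 0.5 FPKM. Libraries at 0 also show no spread, which can make the p-values of these calls too small. With a pseudocount of 1 FPKM the calls were 8 in RD57 and 5 in RD6. When genes with a 0 in a library compared were left out of the test, 7 members were called in each cultivar.

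XLOC_019448 showed the largest early rise, as the average of both cultivars, of the members called in both. At 7 DPA it was at 3.71, 11.7 and 8.49 FPKM in RD57 and 8.29, 5.70 and 3.25 FPKM in RD6. At 14 DPA it was at 126, 54.0 and 77.3 FPKM in RD57 and 87.3, 112 and 121 FPKM in RD6, with no overlap between the stages. At 21 DPA the values were 111, 57.4 and 97.2 FPKM in RD57 and 109.9, 94.6 and 139.7 FPKM in RD6, and the stages 14 and 21 DPA overlapped in each cultivar. At 28 DPA it was lower in every library, at 47.1, 18.3 and 28.9 FPKM in RD57 and 34.7, 42.3 and 43.5 FPKM in RD6. The rise from 7 to 14 DPA was 3.39 (SE 0.40, adjusted p = 9.02e-07) in RD57 and 4.18 (SE 0.40, adjusted p = 4.96e-08) in RD6 by limma. XLOC_037247, described above, came next in that average, at 3.44 (SE 0.53, adjusted p = 2.09e-05) in RD57 and 3.63 (SE 0.53, adjusted p = 1.09e-05) in RD6. Both genes were picked for this rise among members already called, so their p-values add no support to the counts above. The scores of XLOC_019448 and XLOC_037247 were low, at 0.087 and 0.19, and both had thus reached their level by 14 DPA.

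The members can be grouped by the size of both steps in the cultivar average. A rise of at least 1 by 14 DPA and a further rise of at least 0.5 by 21 DPA was seen in 19 members, and a rise of at least 1 followed by a smaller step in 10. In 9 members the change from 7 to 14 DPA was within 1 and the step to 21 DPA was at least 0.5, and in 10 both steps were smaller. The remaining member, XLOC_031956, was named after its values were seen because it alone fell by at least 1 from 7 to 14 DPA. It was at 8.39, 5.45 and 5.02 FPKM at 7 DPA and at 2.74, 3.18 and 2.33 FPKM at 14 DPA in RD57. In RD6 it was at 9.71, 10.9 and 10.5 FPKM at 7 DPA and 4.52, 2.83 and 3.44 FPKM at 14 DPA. The stages did not overlap in either cultivar, and the change was -1.43 (SE 0.49, adjusted p = 0.0233) in RD6 and -1.04 (SE 0.49, adjusted p = 0.0954) in RD57 by limma. At 21 DPA it was at 25.3, 13.5 and 11.6 FPKM in RD57 and 29.1, 11.5 and 17.4 FPKM in RD6, above its 7 and 14 DPA libraries in each cultivar. At 28 DPA it was at 13.3, 4.37 and 4.16 FPKM in RD57 and 10.6, 5.30 and 1.67 FPKM in RD6, where replicate 1 of each cultivar was about as high as its lowest libraries at 21 DPA.

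The second comparison set the end of the course against its start. In the cultivar average, 16 members were at least 1 higher at 28 than at 7 DPA on the log2 scale, 6 were at least 1 lower and 27 lay between. Their median change was 0.10, against -0.20 over all genes. The 1472 other genes highest at 21 DPA had a median of 0.82, a gap that the rule builds in, since they are the genes that did not fall by 1 from 21 to 28 DPA. By limma, 11 members were called higher and 3 lower at 28 than at 7 DPA in RD57, where 8.30% and 16.1% of all genes were. In RD6, 8 were called higher and 2 lower, beside 6.74% and 16.3% of all genes. Genes highest at 7 DPA could not be members, so the low number of lower calls is partly built in here too. The required fall of at least 1 to 28 DPA works the other way and favours lower calls. The shares of all genes are thus not an even comparison, and the counts are a description. After quantile normalization of the libraries, which raised this change by a median of 0.22 in RD57 and 0.25 in RD6 over genes above 0, 13 were called higher and 1 lower in RD57, and 12 higher and 2 lower in RD6. By adjusted p alone, 19 were higher and 7 lower in RD57, beside 29.7% and 38.3% of all genes, and 17 were higher and 9 lower in RD6, beside 25.4% and 39.7%. In both cultivars 6 were called higher and 1 lower by both thresholds. Of those called higher, 8 in RD57 and 5 in RD6 were listed at 0 at 7 DPA, and all of those called lower, 3 and 2, were listed at 0 at 28 DPA. That level of 0 also helped the lower ones to meet the required fall, so the lower calls give no support. Against these 14 calls in RD57 and 10 in RD6, 3 members were called in each cultivar when genes with a 0 in a library compared were left out, and 5 and 3 with a pseudocount of 1 FPKM.

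Some members were listed at 0 at the ends of the course, at 7 DPA in 20.4% of the members in each cultivar, beside 19.4% of all genes in RD57 and 19.5% in RD6. At 28 DPA 14.3% of the members were listed at 0 in RD57 and 16.3% in RD6, beside 27.9% and 33.4% of all genes. All genes include those under the minimum of 5 FPKM, so the 11724 genes within the limits are the closer comparison. Of these, 0.989% were at 0 at 7 DPA in each cultivar, and 3.83% in RD57 and 4.39% in RD6 at 28 DPA. The members were thus more often at 0 than such genes, which at 28 DPA is partly built in by the required fall. At 7 DPA 10 members were listed at 0 in both cultivars and at 28 DPA 7 were, of which 2 were at 0 at both stages, and 34 were above 0 in all 24 libraries. At 28 DPA, 1 further member was listed at 0 in RD6 but not in RD57. The group means at 21 DPA of the 7 members listed at 0 in both cultivars at 28 DPA were 2.90 to 15.2 FPKM. Because the lowest value listed above 0 was 0.50 FPKM, a 0 can stand for a transcript below that floor. On the log2(FPKM + 0.5) scale a gene at 0 differs by at least 1 from a detected gene, so the rule could take in at 7, 14 and 21 DPA only genes at 0 in both cultivars or in neither.

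**Figure D4:**
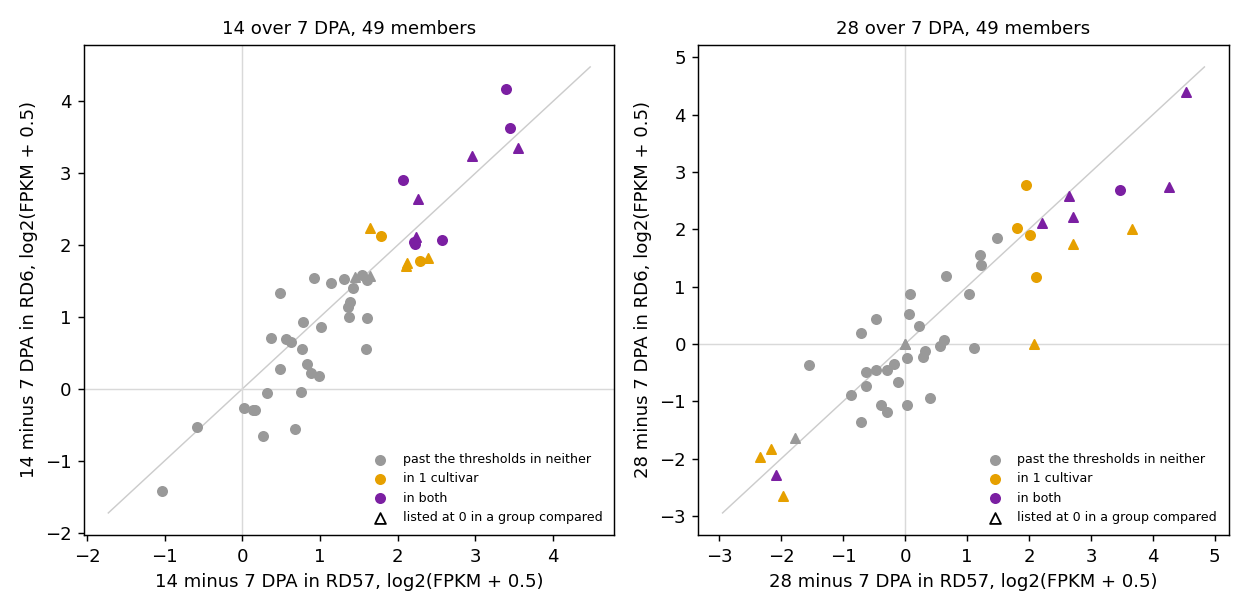
Change of each of the 49 members in RD57 (x axis) and RD6 (y axis) in log2(FPKM + 0.5), from 7 to 14 DPA (left) and from 7 to 28 DPA (right). Colour marks members past both thresholds in neither, 1 or both cultivars, triangles mark members listed at 0 in a group compared, and the diagonal marks equal change. The 10 members called in both cultivars on the left lie at 2 or above on both axes.

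The third comparison was between cultivars at 28 DPA, where the rule set no limit on their difference. It did use the average of both cultivars there, which had to be at least 1 below that at 21 DPA. Most members were alike, with 85.7% of the 49 within 1 on the log2 scale, against 95.2% of the 1472 other genes highest at 21 DPA and 89.2% of all genes. The median of RD57 minus RD6 was 0.13, with 30 members above 0 and 12 below, and the median over all genes was 0. The 1472 other genes highest at 21 DPA had a median of 0.16, with 982 above 0 and 490 below, so that the tilt to RD57 was not particular to the members. By limma, 1 member was called higher in RD57, where 2.64% of all genes were, and 0 were called higher in RD6, where 0.429% of all genes were. By adjusted p alone, 6 members were higher in RD57 and 0 in RD6, beside 11.0% and 4.09% of all genes, and 11 had an unadjusted p under 0.05. The 1 call was XLOC_029204, named after its values were seen and listed at 0 in RD6 at 28 DPA. It met the minimum of 5 FPKM only through RD6 at 21 DPA, as described below, so the call gives no support. The call was lost without RD57 replicate 3, and 2 members were called without RD57 replicate 2 or without RD6 replicate 3. At the stages that the rule did bound, the median of RD57 minus RD6 was 0 at 7 DPA, 0.24 at 14 DPA with 33 members above 0, and -0.28 at 21 DPA with 34 members below 0.

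Among the 41 members above 0 in all 6 libraries at 28 DPA, 5 were higher in RD57 by adjusted p and 0 were higher in RD6, beside the 11.0% and 4.09% of all genes given above, so the count is no result about the members. XLOC_000881 had the largest difference of these. At 28 DPA it was at 11.3, 6.93 and 8.73 FPKM in RD57 and 0.804, 1.89 and 4.11 FPKM in RD6, so that every RD57 library was above every RD6 library. The difference was 1.94 on the log2 scale (SE 0.37, adjusted p = 6.87e-04 by limma). At 21 DPA it was at 8.82, 13.9 and 12.3 FPKM in RD57 and 6.06, 7.29 and 9.74 FPKM in RD6, with overlap. At 14 DPA it was at 10.3, 5.66 and 5.62 FPKM in RD57 and 3.06, 5.06 and 5.31 FPKM in RD6, and at 7 DPA at 4.29, 3.29 and 3.90 FPKM in RD57 and 1.28, 2.15 and 3.06 FPKM in RD6. RD57 was thus above RD6 in mean at each stage and without overlap at 7, 14 and 28 DPA.

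XLOC_014269 was the second of these. It was listed at 0 in all 6 libraries at 7 DPA. At 14 DPA it was at 2.92, 2.13 and 1.48 FPKM in RD57 and 1.17, 1.07 and 1.57 FPKM in RD6. At 21 DPA it was at 7.56, 8.54 and 9.47 FPKM in RD57 and 12.4, 3.37 and 3.37 FPKM in RD6, where replicate 1 stood apart. At 28 DPA it was at 6.68, 3.43 and 8.56 FPKM in RD57 and 1.05, 1.27 and 2.43 FPKM in RD6, with every RD57 library above every RD6 library. The difference was 1.67 (SE 0.38, adjusted p = 0.00341 by limma). XLOC_000881 and XLOC_014269 met the fall in the average mainly through RD6. Their values of 21 minus 28 DPA were 0.36 and 0.50 in RD57 but 1.73 and 1.53 in RD6. Both left the list without RD57 replicate 2 or RD6 replicate 1 at 28 DPA. The RD6 values at 28 DPA thus helped to admit them, so these differences are descriptions and their p-values give no support. When the model was fitted only to the 6 libraries at 28 DPA, neither member passed, at an adjusted p of 0.0642 for XLOC_000881 and 0.0678 for XLOC_014269 by limma. An exact two-sided permutation test of 3 against 3 libraries cannot go below p = 0.1.

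The fourth comparison asked whether the fall from 21 to 28 DPA differed between the cultivars. It includes the 21 DPA values, in which the rule bounded the cultivar difference. The change in RD57 minus that in RD6 had a median of 0.56 on the log2 scale over the members, with 37 above 0 and 12 below, against a median of 0 over all genes. Calls over all genes, given below, leaned the same way, so the tilt was not shown to be particular to the members. Without RD57 replicate 1 at 28 DPA, which was high in the members, the median was 0.24 with 34 above 0, and without RD57 replicate 2 at 21 DPA, which was low in them, it was 0.35 with 37 above 0. By limma, 1 member was called with the higher value in RD57, where 4.43% of all genes were, and 0 with the lower, where 0.607% were. By adjusted p alone, 2 members were called, both with the higher value in RD57, beside 12.6% of all genes, and 0 with the lower, beside 4.52%. Because the rule held the 21 DPA difference under 1, a member could reach 2 only with more than 1 at 28 DPA. All genes had no such limit, so the counts of members are a description and not an even comparison with these shares.

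The called member was again XLOC_029204, the gene of the 1 call between cultivars at 28 DPA. It was listed at 0 at 7 DPA in all 6 libraries and at 28 DPA in the 3 RD6 libraries, while RD57 at 28 DPA was at 0.871, 1.94 and 2.31 FPKM. At 21 DPA it was at 1.01, 1.92 and 1.46 FPKM in RD57, of which 1 value is exactly midway between the others, and at 13.1, 1.19 and 1.35 FPKM in RD6. A single RD6 library thus stood far above the others at 21 DPA. With a mean of 5.22 FPKM, RD6 at 21 DPA was the only group through which this gene met the minimum of 5 FPKM, and the same group enters the difference between the cultivars. That difference, 2.93 on the log2 scale and 1.95 without RD6 replicate 1 at 21 DPA, is therefore a description, and the 1 call above gives no support.

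The libraries differed in how high the members were as a group. RD57 replicate 1 at 28 DPA lay above its group by a median of 0.52 on the log2 scale over the 42 members above 0, and it held the highest of the 3 values in 30 of them. RD6 replicate 3 at 28 DPA lay above by 0.44 and held the highest value in 28 of 41. RD57 replicate 2 at 21 DPA lay below by 0.32 and held the lowest value in 36 of 49. The medians over all genes were within 0.03 of 0 in every library. In 717 other genes within the limits that fell by at least 1 from 21 to 28 DPA but were highest at 7 or 14 DPA, RD6 replicate 3 at 28 DPA lay above by 0.87 and RD57 replicate 2 at 21 DPA lay below by 0.38, while RD57 replicate 1 at 28 DPA lay above by 0.078. The part of these shifts in the results was not tested beyond leaving out each library.

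**Figure D5:**
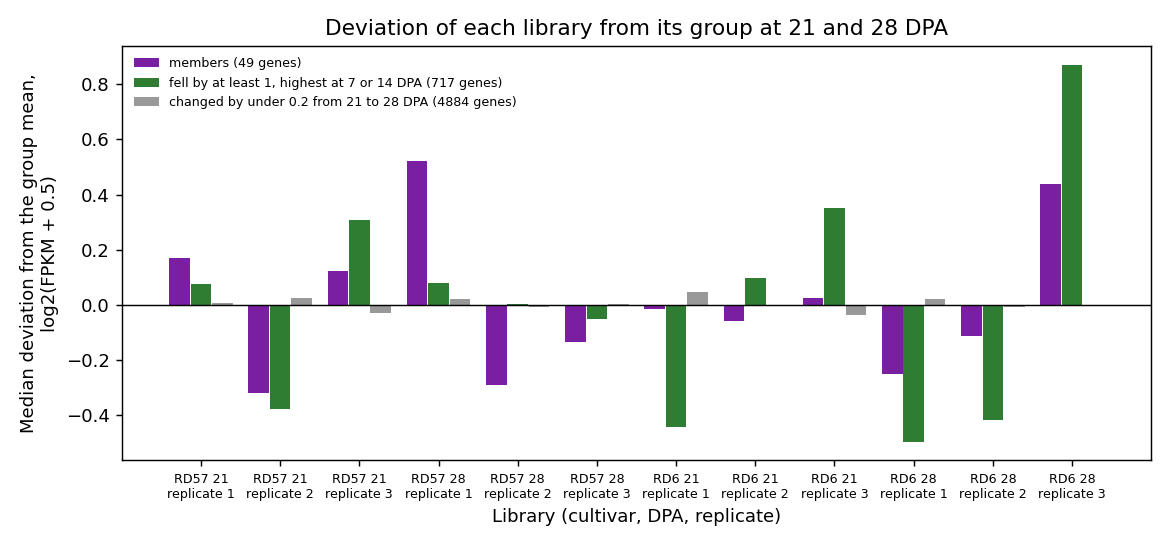
Median deviation of each 21 and 28 DPA library from its group mean in log2(FPKM + 0.5), for the 49 members (purple), for 717 genes in the limits that fell by at least 1 from 21 to 28 DPA and were highest at 7 or 14 DPA (green) and for 4884 genes in the limits that changed by under 0.2 (grey). The grey bars stay within 0.05 of 0, while RD57 replicate 1 at 28 DPA reaches 0.52 in the members and 0.078 in the green set.

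Membership itself depended on single libraries. When the rule was applied again with each of the 24 libraries left out in turn, 18 members stayed in all 24 lists, 16 were lost in 1 to 3 lists and 15 in 4 or more. Of the 18, 12 had a score of at least 0.5. The fewest members, 34, were kept without RD57 replicate 1 at 21 DPA. The longest list, of 66 genes with 44 members, came without RD57 replicate 2 at 21 DPA. In 1 member in RD57 and 3 in RD6, the highest library at 21 DPA was over 3 times the middle one. XLOC_012385, named after its values were seen, is the one in RD57, at 25.6, 1.61 and 3.74 FPKM.

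The rule was also applied to 2 replicates and read in the third, which it had then not used, leaving out genes with a filled value. Without replicate 1, 43 genes were chosen and 38 could be read, of which 32 (84.2%) were highest at 21 DPA in the average of the third replicate, against 16.4% of the genes within the limits. Without replicate 2, 69 were chosen and 43 of 65 read (66.2%) were highest at 21 DPA, against 13.0%. Without replicate 3, 33 were chosen and 25 of 27 (92.6%) were, against 14.1%. A peak at 21 DPA together with a fall of at least 1 was seen in 52.6%, 50.8% and 74.1% of the genes read, against 0.626%, 0.517% and 0.864% of those within the limits. In both cultivars separately, 60.5%, 32.3% and 74.1% were highest at 21 DPA, against 7.61%, 5.40% and 5.62% of those within the limits, with the lowest share where replicate 2 was read. Leaving out genes listed at 0 in any group as well, an exclusion chosen after seeing the data, gave 79.3%, 64.6% and 94.4% highest at 21 DPA in the average, and 41.4%, 43.8% and 77.8% with the fall as well. These shares are a description and were not tested.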

How the data were processed

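Expression was read from the FPKM deposited for 24 libraries (2 cultivars, 4 DPA, 3 biological replicates). The authors filtered reads (FastQC, Fastp, Trimmomatic, SortMeRNA), aligned them with HISAT2 to the indica assembly ASM465v1, assembled transcripts (Cufflinks, Cuffmerge) and obtained FPKM (Cuffquant, Cuffnorm). Tool versions are not given in the sources used here. They merged transcripts per gene, excluded FPKM below 0.5, required detection in at least 2 replicates and filled missing values with the replicate mean, which narrows the spread. Where a replicate lay exactly midway between the other 2 it was counted as filled, and 12 members have at least 1. The table gives no depth, so precision rests on the 3 replicates. The p-values set each difference against the spread between biological replicates, estimated over all 24 libraries with information shared across genes. A group at 0 in all its libraries adds no spread, so the p-values of genes with such groups can be too small. The spread was also taken as equal over groups. The members' median SD was 0.50 in RD57 and 0.60 in RD6 at 28 DPA, against 0.28 to 0.43 in the other groups, so errors at 28 DPA can be understated.

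Members, the comparisons and the limits of the rule were chosen with earlier results of these data known. Values were tested with limma 3.58.1 in R 4.3.3 on log2(FPKM + 0.5), which understates the change of low genes above 0. Where a transcript under the floor of 0.5 FPKM was listed at 0, its change can be overstated instead. The fit was 1 model with 8 group means over all 24 libraries, trended empirical Bayes, two-sided, adjusted by Benjamini-Hochberg over 26362 genes. Calls needed an adjusted p of at most 0.05 and a log2 change of 2 or more in either direction. The script was tested on simulated data. Contrasts that the rule set directly were not tested, but those tested share group values with the rule. Named members were the 2 with the highest score, the 2 most abundant at 21 DPA, the 2 with the largest difference at 28 DPA among those above 0 there and past the adjusted p, and the 2 with the largest early rise called in both cultivars; no member qualified as higher in RD6 at 28 DPA or as falling early. Replicate numbers only name libraries. Python 3.11.15 with pandas 2.3.3, numpy 2.4.6 and matplotlib 3.10.9 was used for the rule and the plots.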

Additional observations from a re-analysis of the deposited data

Results flagged for a closer look

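XLOC_029204 was singled out by the test of the difference between cultivars in the change from 21 to 28 DPA, which was 2.93 on the log2 scale. It met the minimum of 5 FPKM only through RD6 at 21 DPA, a group that enters this difference, so the value is a description and no p is given. The transcript was listed at 0 in the 3 RD6 libraries at 28 DPA, and its RD6 level at 21 DPA was 13.1 FPKM in replicate 1 against 1.19 and 1.35 FPKM in the others. Over the alternatives tried for it, chosen after seeing the data, the difference ran from 1.95 to 5.01, the lowest without RD6 replicate 1 at 21 DPA.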

How the results depend on the processing

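The counts kept within 1.5 times their value under quantile normalization and a filter at a mean of 1 FPKM. For RD57 over RD6 at 28 DPA (1 member), a pseudocount of 0.1 gave 2, a pseudocount of 1 gave 0, genes above 0 in the libraries compared gave 0, a fold threshold of 1 gave 4 and adjusted p alone 6, and leaving out 1 library gave 0 to 2. For the difference in the 21 to 28 DPA change (1 member), genes above 0 gave 0, the groups compared alone 0, a threshold of 1 gave 2 and adjusted p alone 2, and leaving out 1 library gave 0 to 1. For 14 over 7 DPA in RD57 and RD6 (14 and 12), a pseudocount of 1 gave 8 and 5, genes above 0 gave 7 and 7, a threshold of 1 gave 28 and 28 and adjusted p alone 32 and 31, and leaving out 1 library gave 10 to 15 and 8 to 12. For 28 over 7 DPA in RD57 and RD6 (14 and 10), a pseudocount of 1 gave 5 and 3, genes above 0 gave 3 and 3, a threshold of 1 gave 24 and 24 and adjusted p alone 26 and 26, and leaving out 1 library gave 12 to 16 and 9 to 12. The stricter settings test fewer genes or shrink low values by construction.

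With the replicate number as a block, the counts were 1, 1, 14, 12, 14 and 10, as without it. Deviations of same-numbered libraries had a median correlation across genes of 0.0039 over 84 pairs, from -0.34 to 0.39, so the numbers were not read as pairs. Other settings of the rule kept 35 to 44 of the 49 members, and 34 to 49 with 1 library left out. In both cultivars, 31 to 39 peaked at 21 DPA. The median difference in the 21 to 28 DPA change, 0.56, was 0.24 to 0.67 with 1 library left out, an alternative chosen after seeing the data. Quantile normalization moved the median of genes above 0 by -0.12 and -0.10 for 14 over 7 DPA and by 0.22 and 0.25 for 28 over 7 DPA, in RD57 and RD6.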
